A study of Mus musculus with 9 samples.

Results

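The Toll-like receptors and the proteins that help macrophages sense bacterial lipopolysaccharide (LPS) were followed through their transcripts in RAW 264.7 cells, a mouse macrophage line. The members are Tlr2, Tlr3, Tlr4, Tlr6, Tlr7, Tlr9, Cd14, Ly96, Cd180 and Ly86, taken by gene symbol: every probe set that the array's annotation assigns to exactly 1 of these genes was used. This gave 14 probe sets for 10 genes, out of 12393 genes named on the array. Tlr7 had 3 probe sets and Tlr3 and Tlr4 had 2 each.

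The study hybridised total RNA to 9 Affymetrix mouse arrays, each with its own sample. By their labels, 3 were from cells given LPS at 100 ng/ml for 18 h, 3 from cells that constitutively overexpressed CstF-64, and 3 from untreated cells. CstF-64, encoded by Cstf2, is an RNA-binding subunit of the complex that forms mRNA 3' ends. All groups are the same cell line, and no sample combines LPS with CstF-64 overexpression. The sources used here do not give the promoter or vector of the construct, or whether these cells were 1 clone or a pool, and no group carries an empty construct. The effect of CstF-64 and other differences between the cell populations therefore cannot be told apart. Nor do the labels say whether the 3 samples of a group were separate cultures, so every p-value rests on the spread between samples that may differ only technically.

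Toll-like receptors are membrane proteins that recognise conserved microbial molecules and signal through adaptor proteins to NF-kappaB and interferon regulatory factors. TLR4 senses LPS at the cell surface: CD14 passes LPS on to MD-2, the product of Ly96, which holds the lipid within the TLR4 complex. CD180 (RP105) with MD-1, the product of Ly86, forms a related surface pair that lacks the signalling domain of TLR4 and is known to restrain TLR4 in macrophages. TLR2 with TLR6 senses diacylated lipopeptides at the surface, while TLR3, TLR7 and TLR9 sense double-stranded RNA, single-stranded RNA and DNA within endosomes.

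Values are the deposited intensities on a linear scale, and a mean ± SD covers the 3 arrays of its group. Changes are differences of log2(intensity + 13) from limma, a linear model fitted to all 9 arrays and 22626 probe sets. A probe set "rose" or "fell" where the adjusted p (Benjamini-Hochberg over all probe sets) was under 0.05. The brightest Bacillus control value, 31.2, served as the background limit. Intensities of different probe sets cannot be compared as levels. In bulk RNA, fewer cells of a type and less RNA per cell cannot be told apart.

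Facts of the whole series that bear on these values were as follows. All 8 genes of a list checked for the LPS response rose after LPS, where 5.93% of all probe sets were called higher. They were Tnf, Il1b, Il6, Nos2, Ptgs2, Csf3, Ccl5 and Irf7. LPS array 1 was far above the other LPS arrays for Il6 (809.9, 42.8 and 59.4, limma adjusted p = 0.0387) and Nos2 (1069.9, 143.5 and 182.0). The brighter Cstf2 probe set read 358 ± 38.4 in the arrays labelled CstF-64 and 378 ± 18.0 in untreated cells (limma adjusted p = 1.00). The dimmer Cstf2 probe set read 87.6 ± 8.57 and 116 ± 17.0 in these groups (limma adjusted p = 0.763). The label is thus not borne out by the probe sets and is used only as the name of those arrays. Whether these probe sets register the construct is not known. Of 10 macrophage markers, 8 had a mean above background, against 2 of 6 B cell, 1 of 6 T cell, 2 of 6 dendritic cell, 3 of 6 granulocyte and 1 of 6 fibroblast markers. The B cell markers summed to 116.4 to 187.3 on LPS arrays, 122.2 to 154.5 on CstF-64 arrays and 123.7 to 139.8 on untreated arrays. Means over the 9 arrays were below the limit for Cd79a, Cd79b, Cr2 and Pax5. After LPS, 4 macrophage markers rose (Itgam, Fcgr1, Adgre1 and Cybb), Csf1r fell, and the fibroblast marker Dcn rose (34.4, 46.4 and 61.7 on LPS arrays, against 4.9, 3.5 and 13.4 on untreated arrays, limma adjusted p = 0.00108). The part of these markers in the LPS changes below was not tested. No marker of the other types was called after LPS, and no marker of any type was called for CstF-64 against untreated cells. Adgre1 read 230.6, 209.5 and 222.8 on CstF-64 arrays and 416.3, 608.1 and 507.5 on untreated arrays. Its change of -1.15 did not pass the test (limma adjusted p = 0.0777). LPS array 1 and CstF-64 array 1 stood apart from their groups, with mean correlations of 0.966 and 0.975 to the other 2 arrays, against 0.977 to 0.985 for the other arrays. Centring the arrays on their medians moved the median change of all probe sets after LPS to 0.117, against -0.038 as deposited. That step moved the share of higher calls to 60.5%, against 35.7% as deposited, and quantile normalization moved it to 46.2%. For CstF-64 against LPS the share was 37.3% after centring, 52.3% after quantile normalization and 62.0% as deposited.

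After LPS, the receptors themselves were not called. Of the 14 probe sets, 1 rose, that of the co-receptor Cd14, and 1 fell, that of Ly86. The 2 of 14, or 14.3%, stand beside 16.6% of all probe sets called (5.93% higher and 10.7% lower). The median change of the 14 probe sets was 0.078, and that of all probe sets was -0.038. The ranges of the LPS and untreated arrays did not overlap for 4 of the 14, where 33.4% of all probe sets showed no overlap. In the arrays labelled CstF-64, 1 of the 14 fell, again Ly86, and none rose, where limma called 0.248% of all probe sets (0.102% higher and 0.146% lower). The ranges did not overlap for 2 of the 14, Ly86 and a Tlr7 probe set below background, where 12.9% of all probe sets showed no overlap. At an unadjusted p under 0.05 there were 2 of 14 after LPS, where 28.8% of all probe sets passed, and 2 of 14 for CstF-64, where 6.45% did. The 2 for CstF-64 were Ly86 and the Tlr7 probe set below background. Because these comparisons use the same 3 untreated arrays, a shared direction is not independent evidence.

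**Figure D1:**
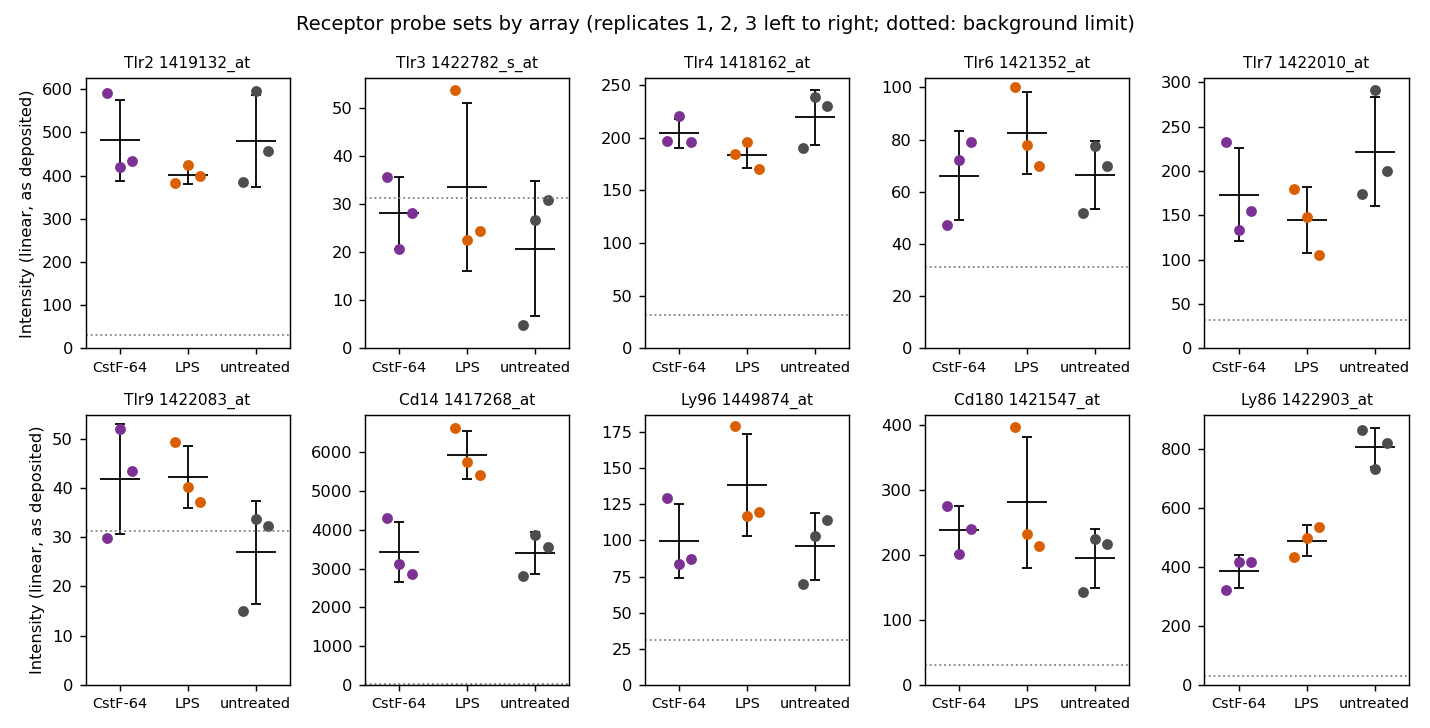
Intensity of the brightest probe set of each of the 10 genes (vertical axes, linear, each from 0) on every array, by group, with the mean and SD as bars and the background limit of 31.2 as a dotted line. LPS arrays lie above all other arrays for Cd14, untreated arrays lie above all other arrays for Ly86, and the Toll-like receptor panels overlap except between LPS and untreated arrays for Tlr9 and between CstF-64 and LPS arrays for Tlr4.

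Cd14 encodes the LPS-binding co-receptor of TLR4, which also serves TLR2. Its probe set, 1417268_at, read 6632.9, 5750.4 and 5430.0 on LPS arrays 1, 2 and 3. It read 4305.3, 3112.6 and 2848.4 on CstF-64 arrays and 2802.3, 3857.7 and 3564.7 on untreated arrays. Every LPS array was above every other array, while the CstF-64 and untreated ranges overlapped. After LPS the change was 0.81 (SE 0.19, 95% interval 0.39 to 1.22, limma adjusted p = 0.0153), and the LPS mean was 1.74 times the untreated mean. An exact permutation test of 3 against 3 arrays gave p = 0.1, the smallest that design allows. The call was lost under quantile normalization (change 0.52, adjusted p = 0.0698) and without untreated array 1 (change 0.67, adjusted p = 0.0551). Over the 15 alternatives the adjusted p ran from 0.00380 to 0.0698. This probe set was among the brightest of the array: by intensity it ranked 13 to 26 of 22690 on LPS arrays and 57 to 185 on untreated arrays. The files carry no saturation marks, and whether scanner saturation limits its values was not tested.

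In the arrays labelled CstF-64 the change of Cd14 against untreated cells was -0.00 (95% interval -0.42 to 0.41, limma adjusted p = 1.00, exact permutation p = 1.0). Set against LPS, the CstF-64 arrays were lower, with a change of -0.81 (SE 0.19, limma adjusted p = 0.0162), where 15.2% of all probe sets were called (9.43% higher and 5.79% lower). That was the only call among the 14 probe sets in this comparison, and the ranges did not overlap for 3 of them, where 30.8% of all probe sets showed no overlap. It was lost without CstF-64 array 2 (change -0.75, adjusted p = 0.0653) and without CstF-64 array 3 (change -0.69, adjusted p = 0.0702).

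Of 8001 other genes, those whose log2 values ran most like Cd14 over the 9 arrays were Tcirg1, a subunit of the vacuolar proton pump (Pearson's r 0.983), the chemokine Ccl4 (0.982) and the phosphatase Ptpre (0.979). These arrays share the group structure, and the correlations are a description only. Ccl4 read 5142.0, 3357.1 and 3618.4 on LPS arrays. It read 1396.0, 383.0 and 411.1 on CstF-64 arrays and 411.6, 676.2 and 626.2 on untreated arrays. CstF-64 array 1 was thus the highest of its group for Ccl4 as it was for Cd14.

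Ly96 encodes MD-2, the protein that binds the lipid part of LPS within the TLR4 complex. Its probe set, 1449874_at, read 179.4, 116.6 and 120.0 on LPS arrays, 129.4, 83.4 and 86.9 on CstF-64 arrays, and 69.8, 103.4 and 114.5 on untreated arrays. All LPS arrays lay above all untreated arrays, by a margin of 116.6 to 114.5 at the nearest pair. CstF-64 arrays 2 and 3 lay within the untreated range and CstF-64 array 1 lay above it. The change after LPS was 0.48 (95% interval -0.05 to 1.00) and did not pass the test (limma adjusted p = 0.217). For CstF-64 it was 0.05 (95% interval -0.47 to 0.58, limma adjusted p = 1.00).

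Tlr4, the signalling receptor for LPS, had 2 probe sets, which the annotation ties to the same sequence entry. The probe set 1418162_at read 185.0, 195.7 and 170.3 on LPS arrays, 196.8, 220.4 and 195.9 on CstF-64 arrays, and 189.9, 238.7 and 230.3 on untreated arrays. The LPS and untreated ranges overlapped, and all CstF-64 arrays were above all LPS arrays by a narrow margin. The change after LPS was -0.24 (SE 0.13, 95% interval -0.52 to 0.05, limma adjusted p = 0.257, exact permutation p = 0.2). The other probe set, 1418163_at, read 246.0, 179.8 and 175.0 on LPS arrays, 208.5, 187.5 and 210.1 on CstF-64 arrays, and 183.8, 189.1 and 211.8 on untreated arrays. LPS array 1 was the highest of all arrays there and LPS arrays 2 and 3 were the lowest. Its change after LPS was 0.02 (95% interval -0.30 to 0.35, limma adjusted p = 0.947, exact permutation p = 1.0), and without LPS array 1 it was -0.12. For CstF-64 the changes were -0.09 (95% interval -0.38 to 0.19) and 0.05 (95% interval -0.28 to 0.38), with limma adjusted p = 1.00 for each. Against untreated cells the 4 intervals of Tlr4 together spanned -0.52 to 0.38.

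Ly86 encodes MD-1, the secreted partner that holds CD180 at the cell surface. Its probe set, 1422903_at, read 433.3, 497.0 and 536.5 on LPS arrays, 320.9, 417.2 and 417.2 on CstF-64 arrays, and 865.2, 733.0 and 819.3 on untreated arrays. Neither the LPS nor the CstF-64 range reached the lowest untreated array. Ly86 fell by 0.71 on the log2 scale after LPS (SE 0.14, 95% interval -1.02 to -0.40, limma adjusted p = 0.00692), to 60.7% of the untreated mean. That call held under all 15 alternatives, with adjusted p from 0.00481 to 0.0338. In the arrays labelled CstF-64 it fell by 1.05 (SE 0.14, 95% interval -1.36 to -0.74, limma adjusted p = 0.0146), to 47.8% of the untreated mean.

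The CstF-64 call of Ly86 held under 10 of 15 alternatives. It was lost without untreated array 1, 2 or 3 (adjusted p = 0.0588, 0.0640 and 0.0829) and without CstF-64 array 2 or 3 (adjusted p = 0.0588 and 0.0698). Over all 15 alternatives the change stayed between -1.11 and -0.93. The CstF-64 arrays, at most 417.2, all lay below the LPS arrays, which read at least 433.3. The change of CstF-64 against LPS was -0.34 (95% interval -0.65 to -0.03) and was not called (limma adjusted p = 0.142). The genes that ran most like Ly86 over the 9 arrays were Acot1, an acyl-CoA thioesterase (Pearson's r 0.969), Tbc1d15, a regulator of RAB GTPases (0.944), and Pcca, a subunit of the mitochondrial propionyl-CoA carboxylase (0.924). Acot1 read 20.5, 44.3 and 34.4 on LPS arrays, 13.9, 14.8 and 22.3 on CstF-64 arrays, and 115.8, 107.5 and 110.8 on untreated arrays. Its CstF-64 arrays and LPS array 1 were below the background limit of 31.2.

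Cd180 encodes the receptor that MD-1 partners. Its probe set, 1421547_at, read 396.3, 231.7 and 213.6 on LPS arrays, 274.5, 200.8 and 240.0 on CstF-64 arrays, and 142.7, 224.4 and 216.7 on untreated arrays. LPS array 1 was well above, and untreated array 1 well below, the other arrays, and the groups overlapped. The change was 0.47 after LPS (95% interval -0.08 to 1.02, limma adjusted p = 0.246) and 0.29 for CstF-64 (95% interval -0.26 to 0.84, limma adjusted p = 0.967). Cd180 thus did not pass the test in either comparison in which its partner Ly86 fell, and the point estimates of Cd180 were above 0. Whether the 2 genes changed differently was not tested.

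RefSeq promoter windows (GRCm38.p6) were given for 6 of the 10 genes. Of these, the 250 bases before the annotated start are printed for Ly86 and Cd180, as partners with unlike values here, and for Tlr9, the only one of the 6 windows with a PU.1 core or an AP-1 match. Letters were searched on both strands for an NF-kappaB-like pattern (GGG, any 5 bases, then CC), the PU.1 core GAGGAA, the interferon response pattern (GAAA, any 2 bases, then GAAA) and the AP-1 pattern TGANTCA. In the same 250-base window of 27025 genes they were found in 45.4%, 23.1%, 3.04% and 6.87% of promoters, in that order. Capitals mark matches. Ly86 is read from chr13:37345095-37345344, Cd180 from chr13:102693297-102693546 and Tlr9 from chr9:106222348-106222597, all on the plus strand.
Ly86: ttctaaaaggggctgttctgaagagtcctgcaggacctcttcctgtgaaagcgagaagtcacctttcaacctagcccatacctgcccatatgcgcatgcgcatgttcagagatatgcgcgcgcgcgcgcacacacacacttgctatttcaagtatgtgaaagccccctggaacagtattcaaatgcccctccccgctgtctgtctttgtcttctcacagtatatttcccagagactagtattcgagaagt
Cd180: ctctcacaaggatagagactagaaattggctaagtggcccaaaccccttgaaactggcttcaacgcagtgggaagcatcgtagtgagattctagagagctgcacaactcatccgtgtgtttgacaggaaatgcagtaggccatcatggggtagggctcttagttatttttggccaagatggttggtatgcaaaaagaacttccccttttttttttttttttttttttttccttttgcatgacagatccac
Tlr9: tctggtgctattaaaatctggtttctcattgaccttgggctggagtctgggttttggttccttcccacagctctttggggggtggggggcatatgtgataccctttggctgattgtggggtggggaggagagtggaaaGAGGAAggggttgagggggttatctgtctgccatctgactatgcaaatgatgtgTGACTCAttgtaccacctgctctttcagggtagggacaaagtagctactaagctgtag

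None of the 4 patterns occurs in these windows of Ly86 and Cd180, which says only that these letters are not there. The Tlr9 window holds the PU.1 core beginning 112 bases before the start and the AP-1 pattern beginning 58 bases before it, without overlap. Of the other windows, the NF-kappaB-like pattern was found in those of Tlr2 and Tlr3 and the interferon response pattern in that of Tlr6.

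Tlr2 encodes the lipopeptide receptor of the cell surface. Its probe set, 1419132_at, read 382.0, 424.2 and 397.8 on LPS arrays, 590.1, 420.1 and 434.7 on CstF-64 arrays, and 385.9, 596.7 and 457.5 on untreated arrays. The LPS arrays were the most even and lay within or just below the untreated range. The change was -0.23 after LPS (95% interval -0.63 to 0.17, limma adjusted p = 0.456) and 0.01 for CstF-64 (95% interval -0.39 to 0.41, limma adjusted p = 1.00). Tlr6, its heterodimer partner, read 100.0, 77.8 and 69.8 on LPS arrays, 47.1, 72.3 and 79.2 on CstF-64 arrays, and 51.9, 77.5 and 70.0 on untreated arrays (1421352_at). These ranges overlapped, and the changes were 0.27 after LPS (95% interval -0.22 to 0.75, limma adjusted p = 0.483) and -0.01 for CstF-64 (95% interval -0.50 to 0.47, limma adjusted p = 1.00).

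Tlr7, the endosomal receptor for single-stranded RNA, was above background on its probe set 1422010_at. It read 179.9, 147.7 and 105.3 on LPS arrays, 232.1, 132.9 and 154.5 on CstF-64 arrays, and 173.9, 291.4 and 199.6 on untreated arrays. The LPS mean was the lowest of the 3 groups, but LPS array 1 lay above untreated array 1. The change after LPS was -0.57 (95% interval -1.15 to 0.00) and did not pass the test (limma adjusted p = 0.175), and no alternative called it (lowest adjusted p = 0.0592). For CstF-64 it was -0.34 (95% interval -0.91 to 0.24, limma adjusted p = 0.949). The other 2 Tlr7 probe sets, 1449640_at and 1419848_x_at, are tied to another sequence entry and lay at or below the background limit on all 9 arrays, so no change is given. Their values ran from 11.5 to 29.6 and from 9.5 to 26.6.

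Tlr9, the endosomal receptor for DNA with unmethylated CpG, read 49.3, 40.2 and 37.2 on LPS arrays, 29.9, 51.9 and 43.5 on CstF-64 arrays, and 14.9, 33.7 and 32.2 on untreated arrays (1422083_at). All LPS arrays were above all untreated arrays, and untreated arrays 2 and 3 were just above the background limit of 31.2 and untreated array 1 below it. The change was 0.50 after LPS (95% interval -0.04 to 1.04, limma adjusted p = 0.212) and 0.47 for CstF-64 (95% interval -0.07 to 1.02, limma adjusted p = 0.851). Tlr3, the receptor for double-stranded RNA, was near background. Its probe set 1422782_s_at read 53.6, 22.4 and 24.4 on LPS arrays, 35.5, 20.5 and 28.0 on CstF-64 arrays, and 4.7, 26.6 and 30.8 on untreated arrays, so that only LPS array 1 and CstF-64 array 1 passed the limit. The other, 1422781_at, passed it on CstF-64 array 1 alone, at 31.5. Neither Tlr3 probe set was called, and no fold is given.

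**Figure D2:**
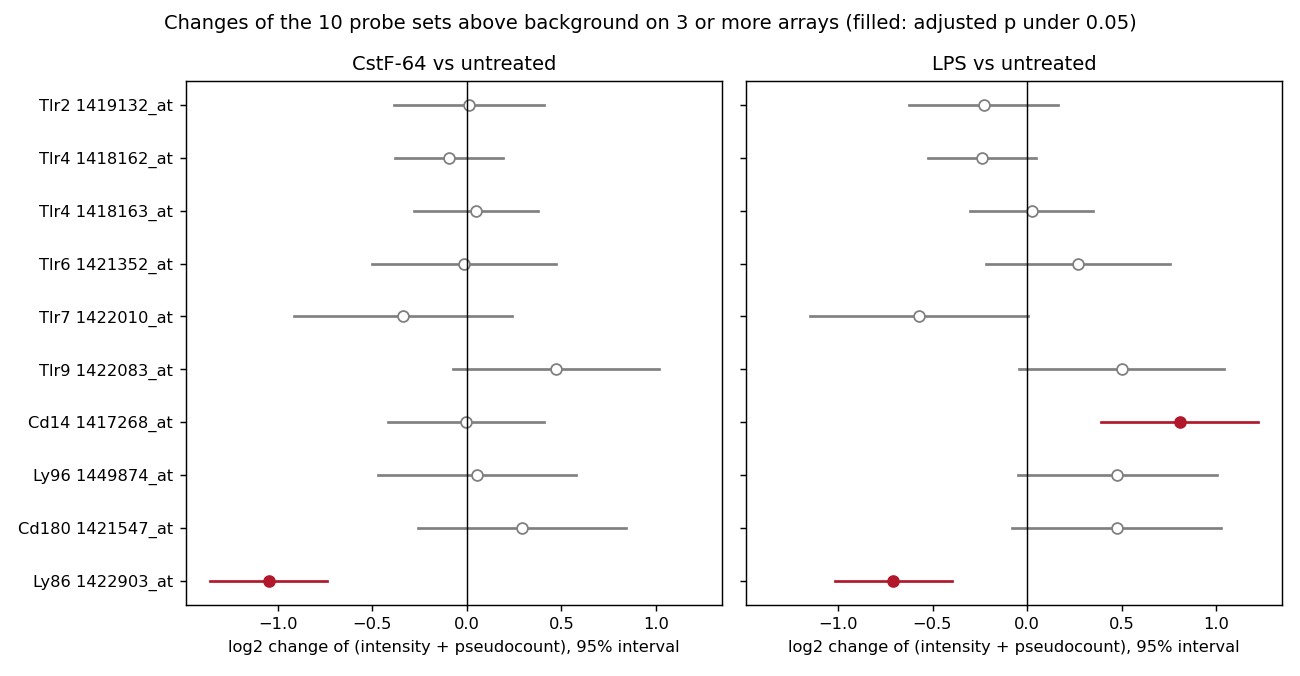
Change of each probe set that was above background on 3 or more arrays (horizontal axis, log2 of intensity plus 13) against untreated cells, with 95% intervals from limma. Filled points passed an adjusted p of 0.05: Ly86 in each panel (-1.05 for CstF-64 and -0.71 for LPS) and Cd14 after LPS (0.81); all other intervals include 0.

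Single arrays were high or low for many of the 14 probe sets at once. LPS array 1 was the highest of its group for 11 of the 14, while it was highest for 49.8% of all probe sets. CstF-64 array 1 was the highest of its group for 8 of 14, against 37.5% of all probe sets, and the lowest for 3, among them Ly86. Untreated array 1 was the lowest of its group for 12 of 14, while it was lowest for 34.9% of all probe sets, and its median deviation over the 14 was -0.273, against 0.003 over all probe sets. These probe sets share arrays and, for 3 genes, a target, and are not independent. The cause was not tested. With LPS array 1 and CstF-64 array 1 left out together, an alternative added after seeing the data, the calls of Cd14 and Ly86 held. Without untreated array 1 the call of Ly86 after LPS held (limma adjusted p = 0.0287). Cd14 after LPS (limma adjusted p = 0.0551) and Ly86 for CstF-64 against untreated cells (limma adjusted p = 0.0588) then lost theirs.

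**Figure D3:**
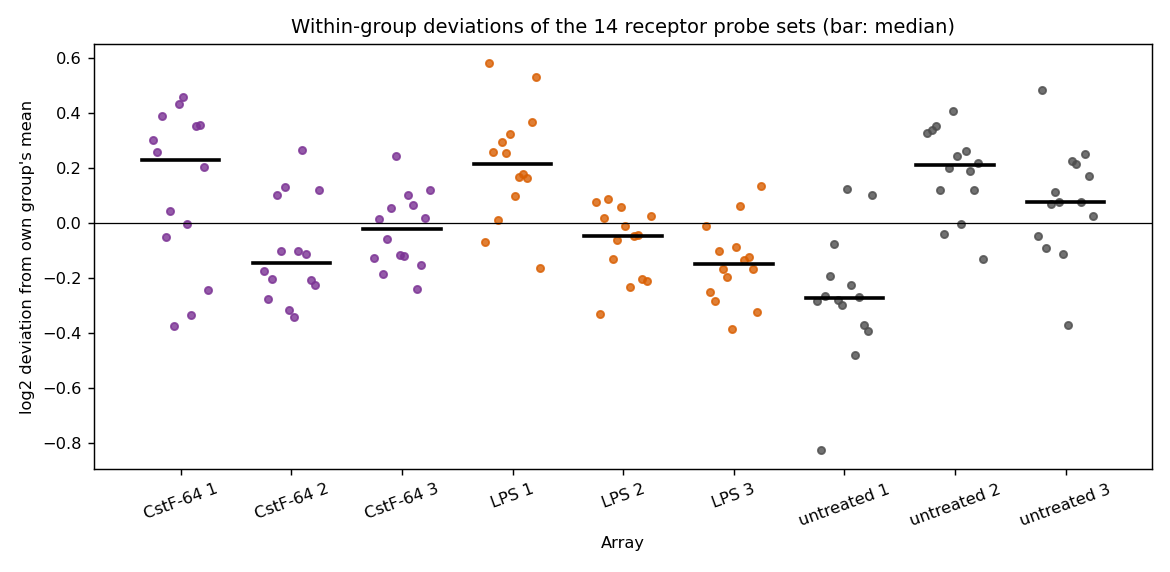
Deviation of each of the 14 probe sets from the mean of its own group (vertical axis, log2 units) on each of the 9 arrays, with the median as a bar. The median is highest on CstF-64 array 1 (0.231), LPS array 1 (0.217) and untreated array 2 (0.210) and lowest on untreated array 1 (-0.273).

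The lists that follow are read against the 5.93% of all probe sets called higher and 10.7% called lower after LPS, and the 0.248% called for CstF-64. Of 13 measured adaptors and kinases of the pathway, 3 rose after LPS and none fell, with a median change of 0.267, against -0.038 over all probe sets. Peli1, a ubiquitin ligase that acts on IRAK proteins, read 466 ± 34.6 after LPS and 115 ± 8.43 in untreated cells (change 1.90, limma adjusted p = 9.4e-06). Ikbke, the kinase IKK epsilon, rose by 1.76 (limma adjusted p = 0.000962), and Tbk1, its close relative, rose by 0.77 (adjusted p = 0.00302). In the arrays labelled CstF-64 none of the 13 was called, with a median change of 0.070. At Peli1 those arrays read 139 ± 11.4.

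Of 8 measured brakes on the pathway, 2 rose after LPS and none fell, with a median change of 0.358, where 5.93% of all probe sets were called higher and 10.7% lower. They were Nfkbia, the NF-kappaB inhibitor IkappaB alpha (5481 ± 694 after LPS and 2151 ± 147 in untreated cells, change 1.34, limma adjusted p = 0.000146), and Tollip, an inhibitor of IRAK signalling. The call of Tollip (change 0.48, limma adjusted p = 0.0456) was lost under 8 of 15 alternatives, among them the fits without untreated array 1, 2 or 3 and without LPS array 1 or 3, with adjusted p up to 0.135. None of the 8 was called in the arrays labelled CstF-64, where the median change was 0.140.

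Of 10 measured genes for ligand transfer and partner receptors, 3 rose, 2 fell and 5 did not pass the test after LPS, with a median change of 0.217, where 5.93% of all probe sets were called higher and 10.7% lower. Cd36, a scavenger receptor that helps TLR2 with TLR6 sense diacylated lipopeptides, read 1145 ± 123 on LPS arrays and 168 ± 44.3 on untreated arrays (change 2.71, limma adjusted p = 6.56e-05). Its CstF-64 arrays averaged 6.13 ± 4.95, all below the background limit, so that Cd36 was at least 5.24-fold lower there than in untreated cells (limma adjusted p = 0.000612). It was the only one of the 10 called for CstF-64, with a median change of the list of 0.143. Itgam, the alpha chain of complement receptor 3, rose by 1.48 (limma adjusted p = 0.000274). Msr1, a scavenger receptor that binds LPS, rose by 2.26 (adjusted p = 0.00249). Trem2, a lipid receptor of macrophages, read 8.7, 142.1 and 132.5 on LPS arrays, against 419.4, 1019.8 and 984.9 on untreated arrays, and fell by 3.28 on the log2 scale (limma adjusted p = 0.00829). LPS array 1 was below the background limit of 31.2 there, and without it the change was -2.35. Cxcr4, a chemokine receptor also described in LPS receptor clusters, was at least 1.79-fold lower after LPS (13.9 ± 1.82 on LPS arrays and 61.8 ± 28.8 on untreated arrays, limma adjusted p = 0.0168). The Cxcr4 call was lost without untreated array 2 or 3 or LPS array 3, with adjusted p from 0.0562 to 0.0719.

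Of 9 measured genes for receptor chaperones and trafficking, 1 rose after LPS and none fell, with a median change of 0.105. Over all probe sets 16.6% were called (5.93% higher and 10.7% lower). The gene that rose was Ctsl, a lysosomal protease that cuts endosomal receptors (change 1.02, limma adjusted p = 0.0118). Ctsl lost the call under quantile normalization (adjusted p = 0.0569). Cnpy3, a folding factor that several Toll-like receptors need, read 114 ± 2.75 after LPS and 166 ± 35.9 in untreated cells (limma adjusted p = 0.0713). It was called lower under 2 of 15 alternatives, without untreated array 1 (change -0.60, adjusted p = 0.0425) and with dim probe sets filtered out (adjusted p = 0.0477). None of the 9 was called for CstF-64, with a median change of -0.059. Of the other Toll-like receptors, Tlr1, Tlr5 and Tlr8 were measured and none was called in either comparison. Tlr1, which also pairs with TLR2, read 69.6 ± 6.65 on LPS arrays, 41.9 ± 7.62 on CstF-64 arrays and 60.2 ± 12.6 on untreated arrays (limma adjusted p = 0.580 after LPS).

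**Figure D4:**
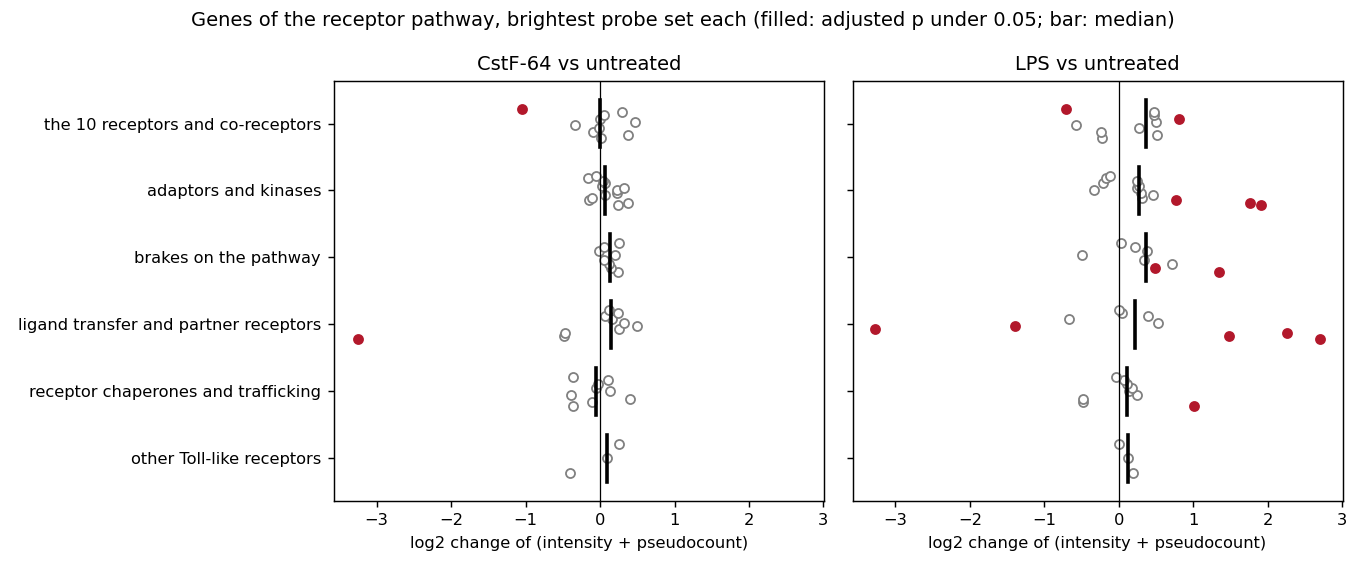
Change against untreated cells (horizontal axes, log2 of intensity plus 13) of the 10 receptors and co-receptors and of 5 lists of related genes, brightest probe set per gene. Filled points passed an adjusted p of 0.05 and bars are medians; for CstF-64 only Ly86 and Cd36 are filled, and after LPS 13 genes are.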

How the data were processed

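RNA of 9 RAW 264.7 samples was measured on Affymetrix mouse arrays. The deposited table gives a linear intensity for each probe set on each array. The sources used here name no software, background correction or normalization behind it. In the deposited table the mean after trimming 2% from each end was 150.05 to 150.06 on every array, so values were kept as deposited. Control probe sets, 64 of 22690, were left out of the tests. Genes were named from the platform annotation, with symbols updated to GRCm38.p6. The log2(intensity + 13) values, where 13 is 0.25 of the median intensity, were fitted with limma 3.58.1 in R 4.3.3 (lmFit, and eBayes with an intensity trend), with 1 mean per group and Benjamini-Hochberg adjustment. On simulated data the fit called 12% of changes of 0.5 on the log2 scale, 60% of changes of 1.0 and 98% of changes of 2.0. It called 140 probe sets in all there, against 3755 after LPS, so these shares do not carry over directly. Lists are counted by the brightest probe set of each gene. Up to 4 genes per list were named by adjusted p after LPS, or 2 where fewer than 4 passed; Tbk1 and Cxcr4 complete small counts and were chosen after their values were seen. Members and lists were chosen with earlier results of these data known. Alternatives were other scalings, pseudocounts of 3.25 and 52, a filter for values above 31.2 on at least 3 arrays, a fit to the groups compared only, no intensity trend, a replicate block and leaving out arrays. The number of arrays limits the precision.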

Additional observations from a re-analysis of the deposited data

How the results depend on the processing

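Each comparison was refitted under 15 alternatives. The count of member probe sets called higher after LPS was 1, and it was 0 under quantile normalization and 0 to 1 when single arrays were left out. The count called lower for CstF-64 against untreated cells was 1, and 0 to 1 when single arrays were left out; the same range held for the count called lower for CstF-64 against LPS. These losses are those of Cd14 and Ly86 given above, and their cause was not tested. Uncalled changes near 0 turned sign. Without single arrays, Tlr4 1418163_at after LPS ran from -0.12 to 0.11, and for CstF-64 against untreated cells Tlr2 ran from -0.14 to 0.17, Tlr6 from -0.15 to 0.17, Cd14 from -0.18 to 0.12 and Ly96 from -0.13 to 0.18. With LPS array 1 and CstF-64 array 1 left out together they were -0.12 for Tlr4 1418163_at, and -0.14 for Tlr2, 0.17 for Tlr6 and -0.13 for Ly96. The labels do not say whether the replicate numbers pair the samples, and these correlations cannot settle it. Deviations of same-numbered arrays correlated at -0.063 to 0.158, and those of differently numbered arrays at -0.236 to 0.196. With the number as a replicate block the member counts were 1 higher and 1 lower after LPS and 1 lower for CstF-64, as without it, and over all probe sets limma called 32 for CstF-64 against untreated cells, against 56 without it. That count was also 18 without untreated array 2, 110 without CstF-64 array 1 and 286 without LPS array 1 and CstF-64 array 1. Changes of probe sets near the background limit, those of Tlr3, Tlr9 and Tlr1 among them, may be understated. None of these was called, and whether they changed is not known.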
